A study of Homo sapiens with 6 samples.

Results

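*NEAT1* and 9 other well-known long noncoding RNAs (lncRNAs) were followed in TC28a2 cells treated with mocetinostat. The 10 genes, *NEAT1*, *MALAT1*, *GAS5*, *SNHG1*, *SNHG5*, *H19*, *MEG3*, *KCNQ1OT1*, *PVT1* and *MIAT*, were taken by their names from the 60623 genes of the count table, and each name matched 1 gene. *NEAT1* was included because its count is much higher after treatment, so its values are given as a description without a test. TC28a2 is an immortalized line of human chondrocytes, the cells of cartilage, and mocetinostat is an inhibitor of class I histone deacetylases, enzymes that remove acetyl groups from histones. Cells received 2 μM mocetinostat or the solvent DMSO for 24 hours, and whole RNA depleted of ribosomal RNA was sequenced in 3 samples per condition, described by the study as independent experiments. All 6 samples came from this single line, and the labels name no other agent or allele, so the values describe one line and not chondrocytes of several donors.

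Long noncoding RNAs are made by RNA polymerase II like messenger RNAs but are not translated into known proteins, and several of them work inside the nucleus. *NEAT1* is the RNA scaffold of paraspeckles, nuclear bodies built around it by RNA-binding proteins, and *MALAT1*, its neighbor on chromosome 11, gathers in nuclear speckles, where splicing factors are stored. *GAS5*, *SNHG1* and *SNHG5* are host genes, whose introns carry small nucleolar RNAs (snoRNAs) that guide the methylation of ribosomal RNA, and their spliced exons are degraded by nonsense-mediated decay. *H19*, *MEG3* and *KCNQ1OT1* are imprinted, which means that only the copy from one parent is normally active, while *PVT1* lies next to the oncogene *MYC* and *MIAT* is a nuclear RNA named for its association with myocardial infarction.

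Promoter sequences are shown for 4 of these genes, *MALAT1* and *MIAT*, which rose with treatment, and *GAS5* and *SNHG1*, which fell. They are RefSeq windows on GRCh38.p14 from 250 bases before to 50 bases after a transcript start, written 5′ to 3′ on the gene's strand. Of the 10 genes, 7 had an entry, and *NEAT1*, *KCNQ1OT1* and *PVT1* had none. *MALAT1* had a window at chr11:65497488-65497787 and another at chr11:65498795-65499094, both on the plus strand. The *MIAT* window is chr22:26646179-26646478 on the plus strand, that of *GAS5* is chr1:173868996-173869295 on the minus strand, and that of *SNHG1* is chr11:62855836-62856135 on the minus strand. The start used for *GAS5* lies 163 bases before the gene as positioned below, so its window holds no base of that gene. Capitals mark the TATA motif (TATAA, or TTATA on the other strand), the GC motif (GGGCGG, or CCGCCC on the other strand) and the CCAAT motif (CCAAT, or ATTGG on the other strand).
MALAT1, upstream start: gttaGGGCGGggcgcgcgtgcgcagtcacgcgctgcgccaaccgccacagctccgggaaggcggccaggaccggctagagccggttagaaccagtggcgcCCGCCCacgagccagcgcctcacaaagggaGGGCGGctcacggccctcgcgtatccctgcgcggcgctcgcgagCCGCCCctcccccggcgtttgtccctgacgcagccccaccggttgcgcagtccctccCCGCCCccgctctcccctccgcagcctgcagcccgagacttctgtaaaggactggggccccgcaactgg
MALAT1, downstream start: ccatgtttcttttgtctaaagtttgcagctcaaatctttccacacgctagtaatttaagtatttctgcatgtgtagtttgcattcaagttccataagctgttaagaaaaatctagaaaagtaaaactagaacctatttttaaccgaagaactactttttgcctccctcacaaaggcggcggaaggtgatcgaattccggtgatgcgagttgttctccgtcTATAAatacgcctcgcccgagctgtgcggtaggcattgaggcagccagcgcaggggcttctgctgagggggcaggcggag
MIAT: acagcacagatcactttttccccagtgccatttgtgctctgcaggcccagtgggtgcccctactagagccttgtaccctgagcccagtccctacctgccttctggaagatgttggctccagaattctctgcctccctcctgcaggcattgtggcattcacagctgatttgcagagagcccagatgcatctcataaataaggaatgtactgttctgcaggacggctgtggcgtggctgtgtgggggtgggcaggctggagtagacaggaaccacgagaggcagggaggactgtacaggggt
GAS5: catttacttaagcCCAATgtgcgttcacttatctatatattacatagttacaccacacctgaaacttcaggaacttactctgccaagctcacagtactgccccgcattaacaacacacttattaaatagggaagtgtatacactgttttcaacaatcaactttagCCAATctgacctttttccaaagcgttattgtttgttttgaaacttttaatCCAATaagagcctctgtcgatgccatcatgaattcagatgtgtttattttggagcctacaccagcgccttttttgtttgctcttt
SNHG1: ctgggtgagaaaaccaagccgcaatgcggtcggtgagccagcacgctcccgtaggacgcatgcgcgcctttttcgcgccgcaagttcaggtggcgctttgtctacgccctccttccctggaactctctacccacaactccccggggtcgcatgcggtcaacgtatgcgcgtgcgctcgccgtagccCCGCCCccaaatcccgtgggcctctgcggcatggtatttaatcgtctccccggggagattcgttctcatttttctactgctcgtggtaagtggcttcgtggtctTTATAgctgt
The 2 *MALAT1* windows differed, with 5 GC motifs and no TATA motif in the upstream one and 1 TATA motif and no GC motif in the downstream one. *MIAT* held none of these letters, *GAS5* held the CCAAT motif 3 times, and *SNHG1* held 1 GC motif and, after its start, 1 TATA motif. Among all 35116 windows of the same length, 20.4% held the TATA motif, 45% the GC motif and 34.6% the CCAAT motif, on either strand. Neither the pair that rose nor the pair that fell shared a searched motif, and a match of letters says nothing of binding.

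Library totals were 4873426 to 11031132 counts in the control samples and 1619344 to 5089542 in the treated ones, so depth differed between the conditions, and the values of host genes are given below also with every library thinned to the lowest total. Levels are CPM, read counts scaled to a common library size, with TMM normalization, which measures each RNA relative to the others, and fewer cells and less RNA per cell cannot be told apart. A gene was tested if it passed edgeR's filter on low counts (13966 genes), and adjusted p-values are from edgeR's quasi-likelihood test over all of these. Of the 8 chondrocyte markers, 7 were tested and all 7 rose at an adjusted p under 0.05, against 32.9% of all genes tested. *SOX9* rose by 0.77 and *COL2A1* by 3.70 on the log2 scale. The summed level of the list was between 115 and 141 CPM with DMSO and between 257 and 297 CPM with mocetinostat. Fibroblast markers summed to between 4500 and 5450 CPM and between 4040 and 4410 CPM, mostly *COL1A1*, so the sum says little of the others. Of the 6 fibroblast markers, 5 were tested. At an adjusted p under 0.05, 3 of them rose and 2 fell, against 32.9% and 31.4% of all genes tested. The summed level of the 4 endothelial markers was between 5.07 and 7.70 CPM with DMSO and between 39.0 and 45.6 CPM with mocetinostat, that of the 4 epithelial markers between 0.208 and 1.03 CPM and between 22.0 and 34.7 CPM, and that of the 5 blood cell markers between 1.33 and 2.08 CPM and between 5.35 and 11.2 CPM, with *CD3E* and *HBB* at 0 in all 6 libraries. At the same adjusted p, 3 of the 4 tested endothelial markers rose, as did 2 of 2 epithelial and 1 of 1 blood cell markers, and 0 fell. Markers of other cell types thus rose as well as those of chondrocytes. The part of all these markers in the results below was not tested.

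Among the 10 lncRNAs, *H19* and *MEG3* were below the filter and 8 were tested. Of the 7 tested genes other than *NEAT1*, 3 were higher with mocetinostat without overlap between the conditions (*MALAT1*, *KCNQ1OT1* and *MIAT*), against 33.7% of all genes tested, and 2 were lower without overlap (*GAS5* and *SNHG1*), against 32.8%. Of these 7 genes, *MALAT1* and *MIAT* were upregulated by the thresholds of the study, an adjusted p under 0.05 and a log2 fold change over 1, against 20.2% of all genes, and none was downregulated, against 8.18%. At an adjusted p under 0.05 alone, *MALAT1*, *KCNQ1OT1* and *MIAT* rose, against 32.9% of all genes, and *GAS5* and *SNHG1* fell, against 31.4%.

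**Figure D1:**
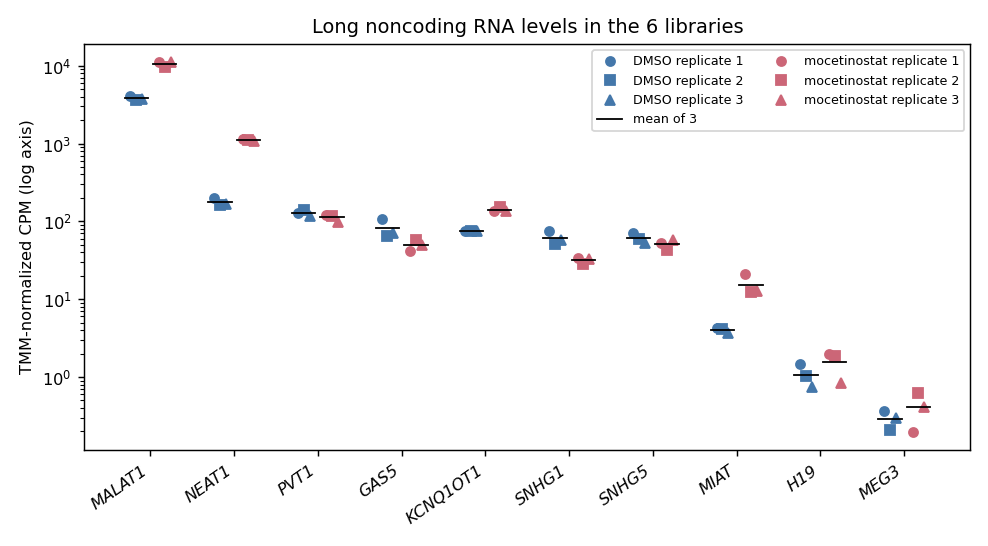
Levels of the 10 lncRNAs in each library as TMM-normalized CPM on a log axis, with symbols for replicates and a line at the mean of 3. *MALAT1* and *NEAT1* reached means of 10600 and 1110 CPM with mocetinostat, whereas *H19* and *MEG3* stayed below 2 CPM in every library.

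*NEAT1* spans chr11:65422774-65445540 on the plus strand (GRCh38), a single stretch of 22767 exonic bases. Its level was 197, 162 and 165 CPM in the DMSO samples and 1130, 1120 and 1080 CPM in the mocetinostat samples, a mean of 175 ± 19.4 (SD, n = 3) against 1110 ± 26.9 (SD, n = 3). The 3 treated samples lay within a narrow band, all far above the controls, and the fitted fold was 6.34 (log2 2.66, SE 0.08). The raw counts behind these values were 2178, 777 and 1121 with DMSO and 5701, 1814 and 2608 with mocetinostat. In share of all counts, *NEAT1* took between 0.0159% and 0.0197% with DMSO and between 0.108% and 0.112% with mocetinostat. The widest 95% interval among the treated samples (exact binomial, counting error only) ran from 0.107% to 0.117%. Among the 16689 genes annotated as lncRNA, its rank by CPM was 6 with DMSO and 2 with mocetinostat, and among all genes it went from rank 1189 to rank 63. Whether the counting used strand is not given in the sources used here, and without it reads of an antisense transcript are counted with a gene. The only exons annotated over *NEAT1* were short ones on its own strand, the longest of 159 bases.

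*MALAT1* lies 52.1 kb farther along the same chromosome, at chr11:65497640-65508073 on the plus strand. Its level was 4060, 3640 and 3700 CPM with DMSO and 11000, 9710 and 11000 CPM with mocetinostat, a mean of 3800 ± 229 (SD, n = 3) against 10600 ± 745 (SD, n = 3). *MALAT1* rose 2.78-fold in edgeR's quasi-likelihood test (log2 1.48, SE 0.06, adjusted p = 6.04e-36), with every treated sample above every control. It was the most abundant lncRNA in both conditions, and its share of all counts went from between 0.359% and 0.407% to between 0.968% and 1.10%, which moved it from rank 9 to rank 3 among all genes. An antisense transcript, *TALAM1*, covers 77.8% of its exons in the newer annotation and has no row of its own in the count table, so its reads cannot be told apart from those of *MALAT1* if strand was not used.

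Relative to *MALAT1*, *NEAT1* was also higher after treatment. For each 100 *MALAT1* counts there were 4.85, 4.44 and 4.47 *NEAT1* counts in the DMSO samples and 10.3, 11.6 and 9.81 in the mocetinostat samples, without overlap. This ratio is formed within each library and does not depend on depth or on the normalization. The ratio of *KCNQ1OT1* to *MALAT1* lay the other way, with 1.86, 2.05 and 2.00 counts for each 100 with DMSO and 1.24, 1.56 and 1.23 with mocetinostat.

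Between *NEAT1* and *MALAT1* lies *AP000769.1*, a transcribed pseudogene that begins 9.73 kb after the end of *NEAT1*. It had 20, 4 and 17 counts in the controls and 102, 28 and 39 in the treated samples, and it was upregulated (log2 3.32, SE 0.33, adjusted p = 2.04e-14, edgeR). *FRMD8*, the nearest tested gene before *NEAT1* at 9.25 kb, rose by 0.77 on the log2 scale (SE 0.13, adjusted p = 1.64e-07, edgeR), from 41.3 to 45.7 CPM to between 69.2 and 79.9 CPM. Both of these neighbors were higher in all treated samples than in all controls.

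Most messages of the proteins that bind *NEAT1* fell. Of 16 genes of paraspeckle proteins, all tested, 14 fell and none rose at an adjusted p under 0.05, against 31.4% and 32.9% of all genes tested, 4 were downregulated past the fold threshold, against 8.18%, and the median log2 fold change was -0.82, beside a median of -0.0021 over all genes tested; when libraries were scaled to *GAPDH* instead, 10 fell and 3 rose. *NONO* and *SFPQ*, the paired RNA-binding proteins at the core of the paraspeckle, fell by 0.33 (SE 0.07, adjusted p = 7.43e-05) and 1.01 (SE 0.08, adjusted p = 4.31e-19, edgeR) on the log2 scale. *SFPQ* went from 490, 538 and 542 CPM with DMSO to 263, 263 and 255 CPM with mocetinostat, without overlap. The lowest change was that of *DAZAP1*, a splicing regulator (log2 -1.27), and the highest that of *TAF15*, an RNA-binding protein, at 0.17 with an adjusted p of 0.0875 (edgeR) and overlapping conditions. *PSPC1* likewise did not pass the test (log2 -0.18, adjusted p = 0.212, edgeR). Here *NEAT1* and the messages of its partners lay on opposite sides, and the counts are of messages, not of proteins.

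The short form of *NEAT1* ends at a polyadenylation site that is selected by *CPSF6* and *NUDT21*, subunits of cleavage factor I. Both fell, *CPSF6* (log2 -0.83, SE 0.11, adjusted p = 4.84e-10) and *NUDT21* (log2 -1.06, SE 0.09, adjusted p = 5.46e-17, edgeR). *NUDT21* measured 273, 246 and 248 CPM with DMSO and 124, 120 and 125 CPM with mocetinostat. Gene counts hold both forms of *NEAT1* together, so their balance was not measured.

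The 3′ end of *MALAT1* is cut by RNase P and RNase Z. Of the 12 genes of these enzymes 10 were tested, of which 5 fell and 1 rose, against 31.4% and 32.9% of all genes tested, with a median log2 fold change of -0.44; with scaling to *GAPDH* 2 fell and 3 rose. *RPP25*, a protein subunit of RNase P, was the one that rose, from 7.33, 7.08 and 12.2 CPM to 33.1, 45.9 and 37.3 CPM (log2 2.09, SE 0.20, adjusted p = 1.29e-14, edgeR). *RPP30*, another subunit, had the lowest change (log2 -1.05, SE 0.17, adjusted p = 9.62e-08, edgeR). *RPPH1*, the RNA of RNase P, had no counts in any library.

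The snoRNA host genes lay on the other side. *GAS5*, at chr1:173858559-173868882 on the minus strand, measured 108, 64.1 and 71.5 CPM with DMSO and 41.8, 57.6 and 49.7 CPM with mocetinostat, a mean of 81.3 ± 23.6 (SD, n = 3) against 49.7 ± 7.90 (SD, n = 3). The conditions did not overlap, and 1 control sample stood well above the other two. *GAS5* fell by 0.77 on the log2 scale (SE 0.14, adjusted p = 2.3e-06, edgeR), a fold of 0.586 that did not reach the fold threshold. Without the first DMSO sample the fall was 0.52 (adjusted p = 0.000252), with libraries thinned to the smallest total 0.61 (adjusted p = 0.00241), and with libraries scaled to *GAPDH* the value was -0.23 and did not pass the test (adjusted p = 0.186, edgeR), the adjusted p over the alternatives that test against no change lying between 2.23e-14 and 0.186.

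*SNHG1*, at chr11:62851978-62855953 on the minus strand, measured 75.4, 51.6 and 57.3 CPM with DMSO and 33.9, 28.5 and 33.2 CPM with mocetinostat, a mean of 61.5 ± 12.4 (SD, n = 3) against 31.9 ± 2.92 (SD, n = 3). All treated samples were below all controls, and *SNHG1* fell by 0.94 on the log2 scale (SE 0.14, adjusted p = 3.78e-08, edgeR), just short of the fold threshold of 1. It was past that threshold without the second DMSO sample (-1.08), without the third (-1.02) and without the first mocetinostat sample (-1.01). With thinned libraries the fall was 0.85 (adjusted p = 8.42e-05) and with scaling to *GAPDH* 0.40 (adjusted p = 0.0186, edgeR), the adjusted p over the alternatives that test against no change lying between 1.9e-15 and 0.0186.

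*SNHG5*, at chr6:85650491-85678932 on the minus strand, measured 70.5, 58.5 and 53.2 CPM with DMSO and 52.9, 42.8 and 57.2 CPM with mocetinostat. The conditions overlapped, and the log2 fold change of -0.24 (SE 0.13) did not pass the test (adjusted p = 0.104, edgeR). Without the third DMSO sample it was -0.36 and passed (adjusted p = 0.02), with thinned libraries it was -0.10 (adjusted p = 0.627), and with scaling to *GAPDH* its sign turned, to 0.30 (adjusted p = 0.0542, edgeR). The adjusted p over the alternatives that test against no change lay between 0.00109 and 0.627. Thus 2 of the 3 host genes fell, and the values of the third were within the spread between samples.

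The wider family of genes named SNHG, for snoRNA host gene, has 26 other members in the table, of which 19 were tested. Of these, 10 fell and 2 rose at an adjusted p under 0.05, against 31.4% and 32.9% of all genes tested, 3 were downregulated past the fold threshold, against 8.18%, and the median log2 fold change was -0.51; with scaling to *GAPDH*, 4 fell, 4 rose and none was past the fold threshold. The lowest was *SNHG4* with 26.2, 31.9 and 24.6 CPM in the DMSO samples and 11.7, 6.82 and 9.53 CPM in the mocetinostat samples (log2 -1.45, SE 0.21, adjusted p = 1.14e-08, edgeR). The highest was *SNHG26*, which rose by 0.83 (SE 0.30, adjusted p = 0.0129, edgeR), although its conditions overlapped, with 4.98, 7.08 and 6.93 CPM against 11.3, 4.96 and 15.3 CPM. *SNHG3* (log2 -1.11) and *SNHG8* (log2 -1.03) were the other two downregulated genes, and *SNHG14*, a very long imprinted transcript that hosts the SNORD115 and SNORD116 clusters, rose slightly (log2 0.36, adjusted p = 0.0101, edgeR).

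**Figure D2:**
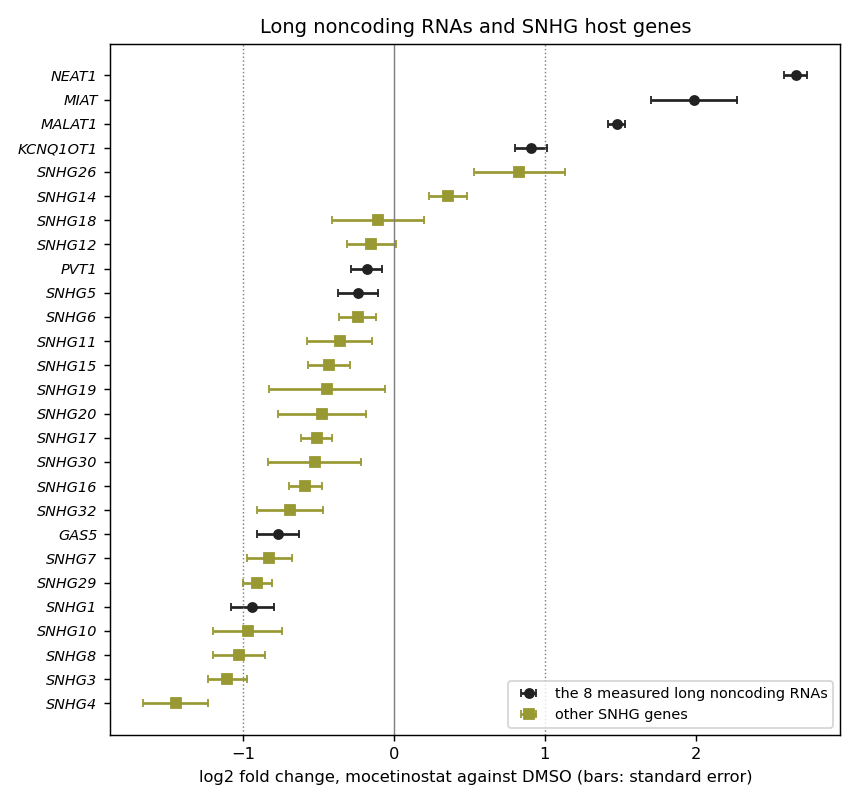
Log2 fold change of mocetinostat against DMSO with its standard error for the 8 tested lncRNAs (black) and the 19 tested other SNHG genes (squares), with dotted lines at the fold threshold. *NEAT1*, *MIAT*, *MALAT1* and *KCNQ1OT1* lie at the top between 2.66 and 0.91, and the host genes reach down to -1.45 for *SNHG4*.

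The snoRNAs themselves were not measured. By their coordinates, 7 snoRNA genes of the table lie inside *SNHG1* and 1 inside *SNHG5*, and none of them had a count in any library. In the newer annotation, exons of *SNHG1* cover its whole length of 3976 bases, introns included. Whether they did so in the annotation used for counting is not known here, and the cause of the missing snoRNA counts was not tested. Of the proteins that assemble box C/D snoRNAs, 8 of 10 fell, against 31.4% of all genes tested, none of them past the fold threshold, with a median log2 fold change of -0.34; with scaling to *GAPDH* none fell and 2 rose. *ZNHIT3*, an assembly factor, was lowest (log2 -0.57, adjusted p = 0.00628, edgeR), and *PIH1D1*, a part of the R2TP chaperone complex, was highest and did not pass the test (log2 -0.23, adjusted p = 0.182, edgeR).

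Of 10 factors of nonsense-mediated decay, the pathway that degrades the spliced host transcripts, 8 fell and 1 rose, against 31.4% and 32.9% of all genes tested, with a median log2 fold change of -0.47; with scaling to *GAPDH* 3 fell and 2 rose. *SMG5*, which recruits decay enzymes to *UPF1*, had the lowest change, from 211, 236 and 256 CPM to 93.8, 98.5 and 96.1 CPM (log2 -1.29, SE 0.10, adjusted p = 9.97e-20, edgeR). *SMG1*, the kinase of *UPF1*, rose by 0.21 (SE 0.08, adjusted p = 0.019, edgeR).

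The genes next to the hosts also differed. *CENPL*, a centromere protein before *GAS5*, was downregulated (log2 -1.57, adjusted p = 5.98e-11, edgeR), as was *WDR74*, a ribosome assembly factor before *SNHG1* (log2 -1.72, adjusted p = 2.24e-15, edgeR), and *SYNCRIP*, an RNA-binding protein 6.43 kb before *SNHG5* (log2 -1.01, adjusted p = 1.15e-18, edgeR). *SLC3A2*, an amino acid transporter subunit that begins 0.051 kb from *SNHG1* on the opposite strand, had 235, 264 and 261 CPM with DMSO and 276, 258 and 264 CPM with mocetinostat and did not pass the test (log2 0.08, adjusted p = 0.431, edgeR). *ZBTB37*, which overlaps *GAS5* on the opposite strand, fell by 0.40 (adjusted p = 0.0361, edgeR), although its conditions overlapped. *RC3H1*, an RNA decay factor after *GAS5*, fell by 0.35 (adjusted p = 0.0118), and *ZNF292*, the next tested gene after *SNHG5*, by 0.52 (adjusted p = 6.03e-05, edgeR).

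*KCNQ1OT1*, at chr11:2597308-2700003 on the minus strand, is transcribed antisense to the potassium channel gene *KCNQ1* and silences neighboring genes on the paternal chromosome. It measured 75.4, 74.5 and 74.1 CPM with DMSO and 136, 152 and 135 CPM with mocetinostat, a mean of 74.7 ± 0.674 (SD, n = 3) against 141 ± 9.41 (SD, n = 3). It rose 1.88-fold (log2 0.91, SE 0.10, adjusted p = 4.88e-12, edgeR) with no overlap, which stayed under the fold threshold, whereas with scaling to *GAPDH* it was past it (log2 1.44). *KCNQ1* itself had 2, 4 and 0 counts in the controls and 7, 1 and 6 in the treated samples and was not tested.

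*H19* and *MEG3* were close to absent from this line. *H19* had 16, 5 and 5 counts in the controls and 10, 3 and 2 in the treated samples, between 0.737 and 1.45 CPM and between 0.829 and 1.98 CPM, and *MEG3* had 4, 1 and 2 counts and 1, 1 and 1. Both overlapped between the conditions, and a difference was not detectable at this depth. By CPM with DMSO they ranked 1266 and 3113 among the lncRNAs, and *MIAT* ranked 399, so these 3 genes were not abundant in TC28a2 cells.

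Of 11 genes of the imprinted domains of *H19* and *KCNQ1OT1*, 8 were tested, of which 5 rose and 2 fell, against 32.9% and 31.4% of all genes tested, and the median log2 fold change was 0.83. *IGF2*, the growth factor next to *H19*, changed most, with 13, 2 and 18 counts against 122, 42 and 57 (log2 4.05, SE 0.32, adjusted p = 1.51e-18, edgeR), while *H19* stayed near the floor. *CDKN1C*, the cell cycle inhibitor 183 kb from *KCNQ1OT1*, rose together with it (log2 1.20, SE 0.28, adjusted p = 0.000114, edgeR). *TSSC4*, on its other side, had the lowest value, with 23.3, 24.6 and 29.3 CPM against 5.95, 3.10 and 4.97 CPM (log2 -2.33, SE 0.25, adjusted p = 3.56e-13, edgeR). Which parental copy was read was not measured. *CTSD*, the protease gene before *H19*, rose by 0.74 (adjusted p = 4.91e-07, edgeR). Around *MEG3*, 1 of 7 imprinted neighbors was tested, *WDR25*, and it did not pass the test (log2 0.10, adjusted p = 0.822, edgeR), while *PPP2R5C*, a phosphatase subunit beyond the domain, fell by 0.72 (adjusted p = 2.15e-06, edgeR).

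*PVT1*, at chr8:127794526-128187101 on the plus strand, measured 127, 141 and 117 CPM with DMSO and 121, 118 and 97.8 CPM with mocetinostat. The conditions overlapped, and the log2 fold change of -0.18 (SE 0.10) did not pass the test (adjusted p = 0.117, edgeR); with scaling to *GAPDH* it was 0.35 (adjusted p = 0.00564), and without the third DMSO sample -0.27 (adjusted p = 0.0266, edgeR). The adjusted p over the alternatives that test against no change lay between 0.000223 and 0.696. *MYC*, 51.6 kb before it, went from 193, 193 and 203 CPM to 170, 141 and 178 CPM, a fall of 0.26 (SE 0.09, adjusted p = 0.011, edgeR). *CCDC26*, the next tested gene after *PVT1* and itself a lncRNA, was upregulated from 18, 5 and 7 counts to 31, 4 and 15 (log2 2.01, SE 0.48, adjusted p = 0.00018, edgeR).

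*MIAT*, at chr22:26646411-26676475 on the plus strand, measured 4.25, 4.16 and 3.68 CPM with DMSO and 20.8, 12.4 and 12.8 CPM with mocetinostat, from 47, 20 and 25 counts and 105, 20 and 31 counts. All treated samples were above all controls, the first of them well above the other two. *MIAT* rose 3.98-fold (log2 1.99, SE 0.29, adjusted p = 6.08e-09, edgeR), and without the first mocetinostat sample the log2 fold change was 1.63 (adjusted p = 0.000256, edgeR). An unnamed lncRNA on the opposite strand covers 13.5% of its exons. *MIATNB*, which overlaps the end of *MIAT* on the same strand, did not pass the test (log2 -0.22, adjusted p = 0.575, edgeR). *TPST2*, 49.7 kb before *MIAT*, rose by 0.50 (adjusted p = 0.000555, edgeR). The next tested gene after *MIAT*, at a distance of 467 kb, was the lncRNA *AL008638.1*. It went from 288, 74 and 133 counts to 10, 7 and 2 (log2 -3.29, SE 0.33, adjusted p = 3.91e-14, edgeR).

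Levels between genes were compared as CPM per kb of annotated exon. With DMSO the order was *MALAT1* (364), *GAS5* (16.5), *SNHG1* (15.5), *NEAT1* (7.67), *PVT1* (5.05), *SNHG5* (4.82), *KCNQ1OT1* (0.807), *H19* (0.311), *MIAT* (0.254) and *MEG3* (0.0124). The samples of *GAS5* and *SNHG1* overlapped, as did those of *PVT1* and *SNHG5* and those of *H19* and *MIAT*, and the other neighbors in the order did not. With mocetinostat *NEAT1* stood second (48.8), above *GAS5* (10.1) and *SNHG1* (8.01), and *MIAT* (0.966) stood above *H19* (0.450). By this scale *NEAT1* ranked 42 among lncRNAs with DMSO and 4 with mocetinostat. Exons were joined over all annotated transcripts, which lowers the value of genes with many forms and of *KCNQ1OT1*, whose annotated exons add up to 92625 bases.

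**Figure D3:**
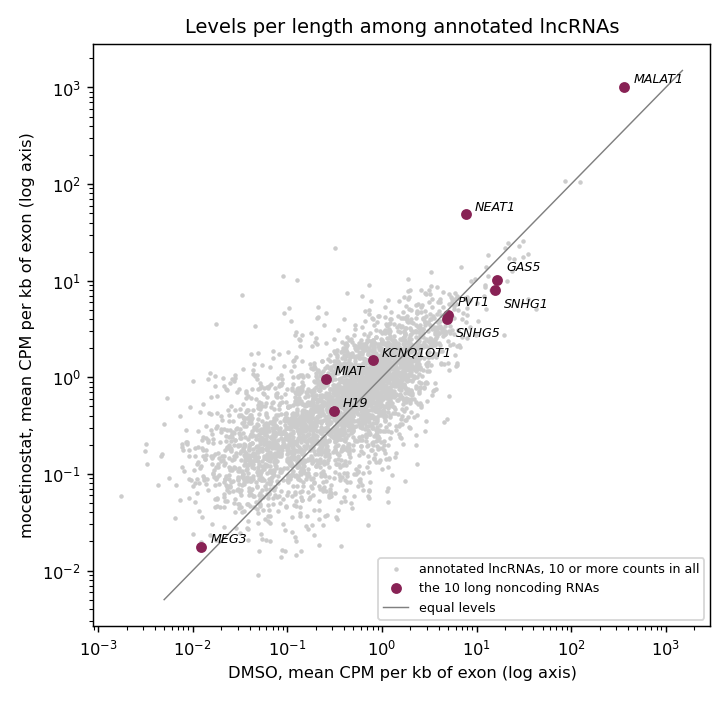
Mean level per kb of exon with DMSO (horizontal) and mocetinostat (vertical) for annotated lncRNAs with at least 10 counts in all, both axes log, with the 10 lncRNAs in color and a line of equal levels. *NEAT1* lies above the line at 7.67 and 48.8, second only to *MALAT1* in height among the 10, and *GAS5* and *SNHG1* lie below it.

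Among all lncRNAs, 919 passed the filter, of which 180 were upregulated and 84 downregulated, shares near the 20.2% and 8.18% of all genes tested. A list of 25 other well-known lncRNAs had 22 tested, of which 3 rose and 10 fell, against 32.9% and 31.4% of all genes tested, with a median log2 fold change of -0.35; with scaling to *GAPDH* 9 rose and 2 fell. The lowest was *DANCR*, which also hosts a snoRNA, at 42.8, 46.9 and 39.2 CPM against 16.9, 13.0 and 12.0 CPM (log2 -1.55, SE 0.18, adjusted p = 4.65e-12, edgeR). The highest was *HAGLR*, a transcript of the HOXD cluster, with 3, 0 and 0 counts against 78, 35 and 41, a ratio of summed CPM of 128 with a 95% interval from 43 to 628 for counting error alone.

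The gene patterns most like that of *NEAT1* were sought by the Pearson correlation of log2 CPM over the 6 samples, among 10167 genes with a mean count of at least 50. The highest were *RIMS4* (0.9996), *CYP2U1* (0.9995), *NEDD4L* (0.9995), *NIBAN1* (0.9994) and *SCUBE1* (0.9994), and 382 genes exceeded 0.99. Since the samples form 2 conditions, these values mostly say that a gene was higher in all treated samples with little spread. *NEDD4L*, a ubiquitin ligase, for example measured 80.4, 70.4 and 74.7 CPM with DMSO and 227, 232 and 228 CPM with mocetinostat. The most alike lncRNAs were *MALAT1* (0.9961) and *KCNQ1OT1* (0.9922).

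The direction of *MALAT1*, *KCNQ1OT1* and *MIAT* was the same under each of the 15 alternatives computed. Scaling to *GAPDH* moved the median log2 fold change of all genes up by 0.54. *GAPDH*, a glycolytic enzyme often used as a reference, measured 3130, 3030 and 2950 CPM with DMSO and 2030, 2190 and 2110 CPM with mocetinostat.

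**Figure D4:**
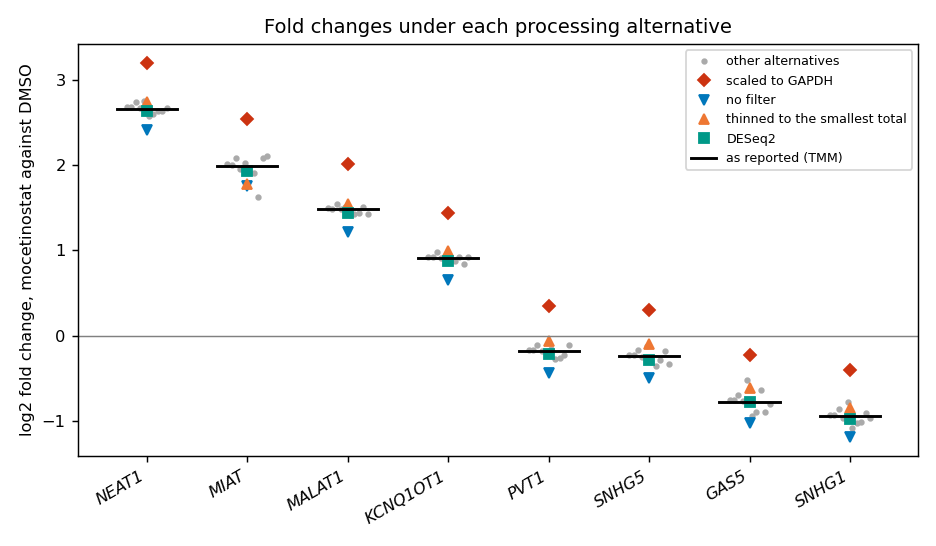
Log2 fold change of the 8 tested lncRNAs under each processing alternative, with a line at the value reported. *NEAT1* ranged from 2.41 without the filter to 3.20 with scaling to *GAPDH*, and *PVT1* and *SNHG5* crossed 0 with that scaling.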

How the data were processed

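RNA-Seq libraries of 6 TC28a2 samples were compared, 3 per condition. The authors deposited raw counts of reads per gene, without normalization. Per the labels and the methods, they removed ribosomal RNA reads, aligned single reads to GRCh38 (Ensembl release 98) with STAR 2.6.1d and counted with featureCounts 1.6.4; the use of strand and the treatment of reads with several matches are not given in the sources used here. Samples were grouped by their treatment label.

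From the counts, edgeR 4.0.16 (limma 3.58.1, R 4.3.3) gave TMM factors; filterByExpr (minimum count of 10) left 13966 of 60623 genes, and the conditions were compared by the quasi-likelihood test in a model of treatment alone, with Benjamini-Hochberg adjustment over all genes tested. DESeq2 1.42.0, other scalings and filters, glmTreat, a replicate block, thinned libraries (a binomial draw per gene) and leaving out each sample were alternatives. The steps were tested on simulated data. Python 3.11.15, pandas 2.3.3 and matplotlib 3.10.9 were used for summaries. GENCODE release 44 gave positions and exon lengths, and 99.5% of the table's genes matched it by identifier. Totals ranged from 1619344 to 11031132 counts, and intervals cover counting error only, as reads carry no molecular identifiers. The chi-square statistic per degree of freedom between replicates was between 1.93 and 7.95, so each sample counted as 1 replicate. The members and lists were chosen with earlier results of these data known. Besides the members, the genes named were the highest and lowest of each list, the nearest tested genes beside each member, those most like *NEAT1*, and *GAPDH*; *NONO*, *PSPC1*, *SFPQ*, *SNHG3*, *SNHG8*, *SNHG14*, *SOX9*, *COL2A1* and *KCNQ1* were added after their values were seen. Some genes that this rule names are not reported here.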

Additional observations from a re-analysis of the deposited data

How the results depend on the processing

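Of the 7 tested lncRNAs other than *NEAT1*, 2 were upregulated under each alternative except scaling to *GAPDH*, which added *KCNQ1OT1* (3). Without a filter, 2 members were downregulated, *GAS5* and *SNHG1*, and leaving out 1 sample gave between 0 and 1. The unfiltered fit had a median log2 fold change of 0.249 over its 40504 genes, against -0.0021 as reported. The value of every tested member was nevertheless lower in it, such as 1.22 against 1.48 for *MALAT1*. Scaling to *GAPDH* reversed *SNHG5* (0.30) and *PVT1* (0.35), left 4 SNHG genes higher, 4 lower and 0 downregulated, and left 26 genes of the context lists higher and 20 lower, against 10 and 49 as reported. Without a filter, SNHG genes past the adjusted p were 0 higher and 6 were downregulated, and *SNHG5* and *PVT1* passed the adjusted p, as they did without the third DMSO sample. SNHG genes higher were 1 with at least 10 counts in every sample, 0 with DESeq2, 1 with thinned libraries and between 1 and 3 without 1 sample. Against a log2 fold change of 1 (glmTreat), 0 SNHG genes were higher and 1 was lower, which was also downregulated, and 5 and 7 genes of the lists were higher and lower. GAPDH scaling changes every gene by construction, and the cause of the other differences was not tested. Over all genes, 2827 were upregulated and 1142 downregulated, against 4425 and 284 with scaling to *GAPDH*, 3201 and 2120 without a filter and 2069 and 465 with glmTreat. Same-numbered samples had correlations of their deviations of 0.0377, 0.0178 and -0.0396, and differently numbered ones between -0.0692 and 0.057. Pairing by number was thus not detected, but with 3 samples per condition these values cannot exclude it. The replicate block gave 2798 upregulated and 1133 downregulated genes and *MALAT1* 1.48, *GAS5* -0.76, *SNHG1* -0.96, *KCNQ1OT1* 0.91 and *MIAT* 1.95. *H19* and *MEG3*, tested only without a filter or by DESeq2, did not pass (adjusted p between 0.732 and 0.987).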

Other observations

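Among 164 lncRNAs with a mean count of at least 50, those with the highest log2 fold changes after *NEAT1* were *OLMALINC*, with 8.87, 11.9 and 7.07 CPM with DMSO and 33.7, 30.4 and 30.3 CPM with mocetinostat (log2 1.80, SE 0.20), and *LINC00632*, with 44.5, 52.5 and 48.5 CPM against 128, 137 and 144 CPM (2.82-fold, log2 SE 0.11). Those with the lowest were *AL008638.1*, the next tested gene after *MIAT* at 467 kb, then *AC009093.1*, with 23.0, 27.1 and 23.9 CPM against 4.16, 0 and 4.97 CPM (log2 -2.77, SE 0.29), and *LINC01444*, with 23.5, 31.2 and 24.3 CPM against 4.36, 3.72 and 2.90 CPM (log2 -2.76, SE 0.26). These genes were chosen by their values, so no test is given.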
